A study of Rattus norvegicus with 90 samples.

Results

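Renal proximal tubular epithelial cells of the Sprague-Dawley Rat were compared after 9 h with a high dose (0.500 mM) of thioacetamide-S-oxide and after 9 h with vehicle. The comparison uses 10 of the 90 libraries of the study, chosen by the cell type, dose and duration on their labels: 5 of the high dose and 5 of the vehicle. The study exposed primary rat hepatocytes, renal cells and cardiomyocytes to vehicle, a low dose or a high dose for 9 or 24 h, with 5 libraries for each of 18 conditions. All renal cultures, treated or not, were grown from bought cryopreserved cells on poly-L-lysine-coated plates and kept in culture overnight before exposure, and the vehicle was the maintenance medium alone. Nothing in the labels says that the 5 cultures of a group came from separate animals, so the p-values measure the spread between these cultures, which may be technical. The question was which transcripts had changed by 9 h in kidney cells that met the compound outside the animal.

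Thioacetamide is a liver and kidney toxicant that is harmful only after oxidation. Cytochromes P450 and flavin monooxygenases of the liver turn it first into thioacetamide-S-oxide, the metabolite used here, and then into a reactive S,S-dioxide that binds proteins and lipids. Proximal tubule cells reabsorb most of the filtered solutes of the kidney, take up many drugs and metabolites through transporters, and are a common target of nephrotoxicants.

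The deposited tables give values per Ensembl transcript and do not pair the transcripts with genes, and 0 of the 40071 transcripts could be matched to a name in the gene table at hand. Gene lists, pathways and the markers of the proximal tubule could therefore not be scored, and the labelled cell type was not checked against its defining genes. The transcripts are instead described by their level, length, relative level in the other cell types, time course and response to dose, and 4 of them are named.

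The vehicle libraries held 23108516 to 30970392 estimated counts and the high-dose libraries 25102100 to 37837044, and no library was identical to another. The share of counts on transcripts was 92.3 ± 0.317% with vehicle and 93.4 ± 0.692% at the high dose (SD, n = 5 each). The number of transcripts with at least 5 counts, scaled to the same depth, was 18648 ± 50.6 and 18836 ± 46.7, and the 100 most abundant transcripts took 22.6 ± 0.0971% and 23.5 ± 0.187% of the transcript counts. The groups did not overlap in any of these 3 measures (exact two-sided permutation test, Benjamini-Hochberg adjusted p = 0.00794 for each, the smallest that 5 against 5 libraries can give). The libraries of a group were alike across transcripts, with Pearson correlations of log2 CPM of 0.991 to 0.992 within the vehicle group, 0.990 to 0.993 within the high-dose group and 0.969 to 0.975 between them.

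One property of the vehicle libraries touches some of the results. A set of 56 transcripts was chosen, after the data were seen, in libraries outside this comparison: abundant in hepatocytes (a median of at least 200 TPM with vehicle at 9 h), and nearly absent from cardiomyocytes and from renal vehicle cultures at 24 h. In the 5 renal vehicle libraries of 9 h these transcripts stood at a median of 0.0943% (MS-121), 0.140% (MS-122), 0.0701% (MS-123), 0.332% (MS-124) and 0.0559% (MS-125) of their hepatocyte level, and between 52 and 56 of the 56 had at least some counts. In each of the other 25 renal libraries, the high dose at 9 h included, the median was 0. Of the 56, 22 passed the filter on low counts and 21 of these were DEGs lower at the high dose, a count that the filter fixes, since they passed it through the vehicle libraries. When the hepatocyte level was multiplied by each library's median share, 27 of the DEGs lower at the high dose had over 50% of their vehicle level accounted for by this product. All counts below are given as measured. Values with this signal subtracted from every library are given for the DEGs at 9 h, the decreases of at least 8-fold and ENSRNOT00000003921. The classes, the sums of TPM and the low dose were not recomputed with it subtracted. Where these transcripts came from was not tested, so a decrease that rests on this signal cannot be told apart from one in the renal cells.

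**Figure D1:**
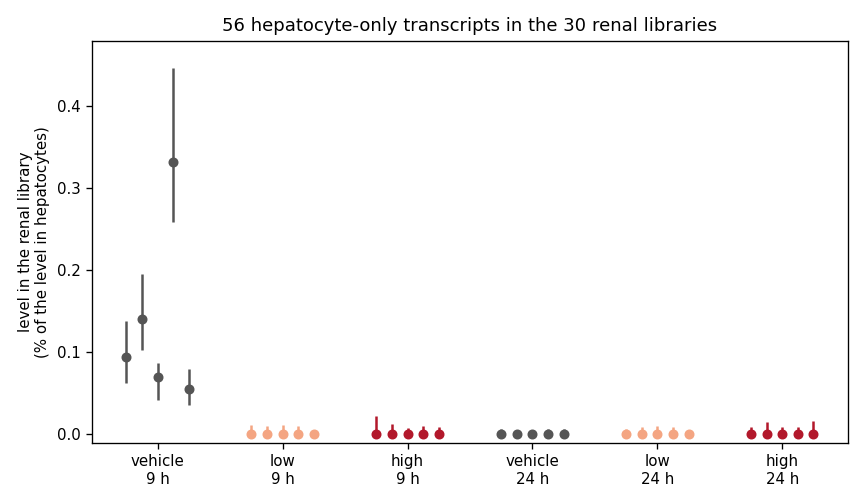
Level of 56 hepatocyte-only transcripts in each of the 30 renal libraries, in percent of their median level in hepatocytes with vehicle at 9 h. Points are medians over the 56 transcripts and lines run from the lower to the upper quartile. The 5 vehicle libraries of 9 h sit between 0.0559 and 0.332%, and the median is 0 in all other libraries.

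Of the 17814 transcripts tested, 3403 (19.1%) were differentially expressed (DEG), meaning that the quasi-likelihood test of edgeR gave an adjusted p-value (Benjamini-Hochberg) no higher than 0.05 and the fold change was at least 1.51 (0.41 on the natural-log scale). At the high dose 1454 transcripts (8.16%) were higher and 1949 (10.9%) lower. A wider set of 10564 transcripts (59.3%) passed the adjusted p-value alone, and 7161 of these stayed under the fold threshold. The median log2 fold change of all transcripts tested was 0.00 and their mean absolute log2 fold change was 0.43. In bulk RNA, fewer cells of a kind and less RNA per cell cannot be told apart. The number of DEGs was 2203 with limma on log2(TPM + 1), and 1567 among the 7285 transcripts that had no fractional count in any of the 10 libraries. With the hepatocyte signal subtracted it was 3397, of which 1448 were the same higher transcripts and 1914 the same lower ones.

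Most changes were of moderate size. The median log2 fold change was 0.97 among the higher DEGs, with quartiles of 0.74 and 1.43, and -0.94 among the lower ones, with quartiles of -1.27 and -0.73. An increase of at least 2-fold was found for 687 DEGs and a decrease of that size for 852. Among larger changes increases were the more frequent, with 12.5% of the higher against 6.72% of the lower DEGs at 4-fold, 60 against 39 transcripts at 8-fold and 22 against 16 at 16-fold. Among transcripts with log2 CPM averaging 3 or more this held at 8-fold (5 against 1), but decreases were the more frequent at 4-fold (20 against 16). The hepatocyte signal touched the largest decreases most, since 17 of the 39 transcripts lower by at least 8-fold had over 50% of their vehicle level accounted for by it. With the signal subtracted, 24 of the 39 were still lower by at least 8-fold. The high-dose libraries all lay on one side of the vehicle libraries for 1253 of the higher DEGs (86.2%) and 1747 of the lower ones (89.6%), where 47.7% of all transcripts tested were separated in this way, 23.7% upwards and 24% downwards.

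The changed transcripts were mostly of low abundance. The median TPM, a level per length over the 10 libraries, was 2.73 for the higher DEGs and 4.63 for the lower ones, against 10.03 for all transcripts tested. Ordered by mean log2 CPM into 4 equal bins, 30.2% of the lowest bin were DEGs, then 22.9%, 13% and 10.3%. The lowest bin held about as many increases (15%) as decreases (15.3%), whereas in the next bins decreases were the more frequent, with 9.03 and 13.9%, then 4.11 and 8.87%, and in the highest bin 4.56 and 5.73%. Among the 100 tested transcripts of highest TPM, all above 1508 TPM, 4 were higher and 9 lower, and among the 1000 of highest TPM 52 were higher and 53 lower, where 8.16% and 10.9% of all transcripts tested were.

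**Figure D2:**
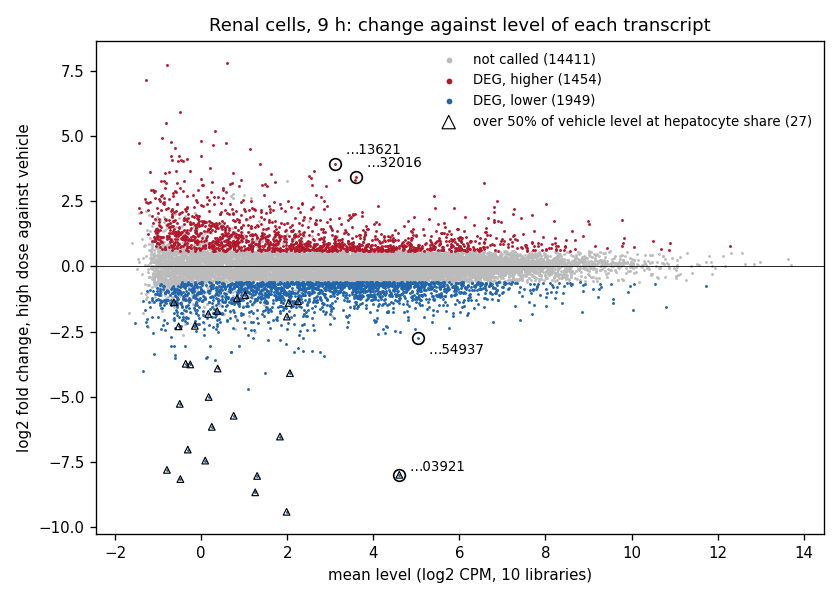
Log2 fold change of each transcript tested, high dose against vehicle at 9 h, against its mean level in log2 CPM over the 10 libraries. Red and blue points are the 1454 higher and 1949 lower DEGs, circles are the 4 named transcripts with the last digits of their identifiers, and triangles are the 27 lower DEGs with over 50% of their vehicle level accounted for by the hepatocyte signal, 17 of them lower by at least 8-fold.

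In terms of abundance, the groups were also apart. The transcripts called higher made up 3.05 ± 0.0884% of all TPM with vehicle and 5.74 ± 0.205% at the high dose (SD, n = 5 each). Those called lower made up 8.61 ± 0.984% with vehicle, between 7.73 and 10.2% in single libraries, and 4.94 ± 0.935% at the high dose, between 3.802 and 5.92%. These sums are descriptions, since the same libraries chose the transcripts. The 10 largest contributors gave 0.915 of the 2.68 percentage points gained, and the 10 that lost most gave -1.31 of -3.67 percentage points.

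A few transcripts were near the limit of detection in one group. With vehicle, 17 of the transcripts tested had at most 3 counts in every library. Their mean CPM at the high dose ran from 0.470 to 2.80, and the largest was at least 22.9-fold higher when set against 3 counts per vehicle library. At the high dose, 9 had at most 3 counts in every library, with 0.624 to 7.83 CPM under vehicle. Such transcripts passed the filter on low counts only through the group where they were high and so had to differ, and that all of them were DEGs is no result. Of these 9, 8 had over 50% of their vehicle level accounted for by the hepatocyte signal.

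The share of lower transcripts was largest in the longest transcripts. From the shortest of 4 equal bins of length (up to 1398 bases) to the longest (from 3393 to 23724 bases), 9.86, 9.34, 11.3 and 13.3% were lower, and 7.5, 8.94, 8.69 and 7.52% were higher. Among the transcripts in the upper 2 bins of level it was again largest in the longest bin, where 5.69, 5.02, 7.2 and 10.1% were lower and 4.11, 4.74, 4.9 and 3.68% higher. The median log2 fold changes of these 4 bins were 0.00, 0.06, 0.02 and -0.02, so that the bin with the most decreases was also the one with the lowest median.

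The other cell types of the study gave 3 classes of transcripts, from vehicle libraries of 24 h that have no part in this comparison. A transcript was put in a class where its median TPM in one cell type was at least 10 and at least 8 times its medians in both others. For all transcripts tested, the shares to compare with are 8.16% higher and 10.9% lower and the median log2 fold change is 0.00. One of the 5 hepatocyte libraries behind the classes, MS-183, had 249303 counts on transcripts, 8.33% of its total. With it left out, the classes held 338, 384 and 381 renal-, hepatocyte- and cardiomyocyte-enriched transcripts, with medians of -0.18, 0.33 and -0.54, beside those below.

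Renal-enriched transcripts fell more often than they rose. Of 341 in the class, 334 were tested, of which 90 (26.9%) were lower and 36 (10.8%) higher, and their median log2 fold change was -0.18. Their summed TPM was 3.86, 3.78, 3.81, 3.83 and 3.87% of the total in the vehicle libraries MS-121 to MS-125, and 3.63, 3.73, 3.63, 3.70 and 3.57% in the high-dose libraries MS-131 to MS-135. Every high-dose library was thus below every vehicle library, by a small margin. At the low dose (0.125 mM) the sum ran from 3.91 to 4.06%, above all vehicle libraries.

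Cardiomyocyte-enriched transcripts, present in renal cells at low levels, fell in the largest share of the 3 classes. Of 385 in the class, 267 were tested, of which 43.1% were lower and 7.12% (19 transcripts) higher, with a median log2 fold change of -0.55. A fall of at least 2-fold was found for 74 of them. Their summed TPM was 0.232, 0.228, 0.236, 0.231 and 0.226% in the vehicle libraries, and 0.159, 0.154, 0.156, 0.156 and 0.160% at the high dose. No single transcript dominated, since the 5 largest contributors gave -0.0186 of -0.0735 percentage points. At the low dose the sum was 0.160 ± 0.00528% (SD, n = 5), close to that of the high dose at 0.157 ± 0.00264%.

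Hepatocyte-enriched transcripts moved both ways. Of 365 in the class 47.1% passed the filter on low counts, of which 62 (36%) were higher and 40 (23.3%) lower, with a median log2 fold change of 0.33. Of the 40, 27 had over 50% of their vehicle level accounted for by the hepatocyte signal, and the median over the tested members without such a level was 0.61. The vehicle level by which members were left out also enters the fold change, so the higher median is no result. The summed TPM of the class was 0.220, 0.222, 0.208, 0.259 and 0.211% in the vehicle libraries, the highest being MS-124, and 0.452, 0.454, 0.437, 0.452 and 0.434% at the high dose. The sum at the high dose was therefore above that of every vehicle library, while the hepatocyte-only transcripts were higher in the vehicle libraries (0.00590 to 0.0342% of TPM) than in the high-dose libraries (0.000841 to 0.00110%). The gain was concentrated, with 5 transcripts giving 0.161 of the 0.222 percentage points. At the low dose the sum ran from 0.200 to 0.290%, overlapping the vehicle libraries. A transcript that passed the filter only through the group where it was high had to differ, so these counts do not speak for the members left untested.

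**Figure D3:**
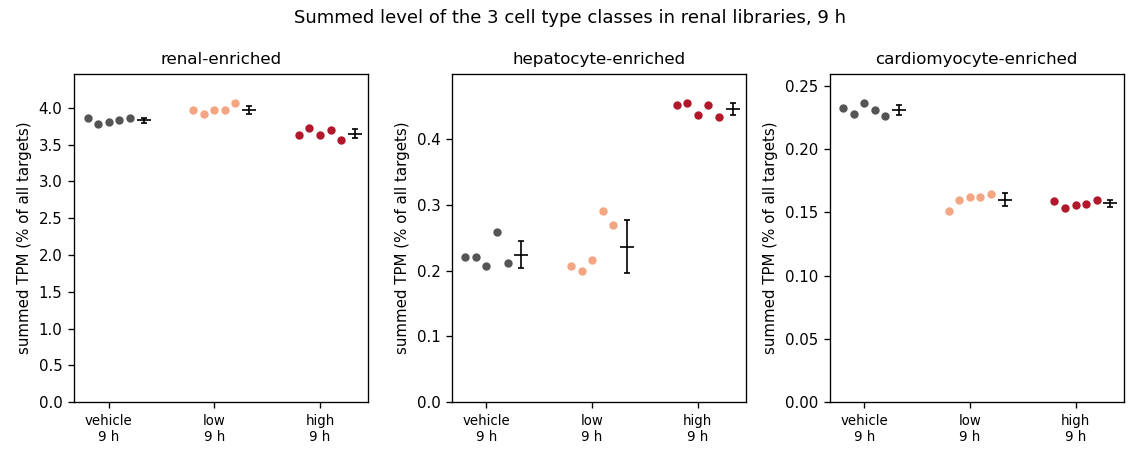
Summed TPM of the 3 cell type classes in each renal library of 9 h, in percent of the TPM of all targets. Points are libraries, and bars are the mean and SD of 5 libraries. The hepatocyte-enriched sum is 0.446% on average at the high dose against 0.224% with vehicle, the cardiomyocyte-enriched sum is 0.160% at the low and 0.157% at the high dose against 0.231% with vehicle, and the renal-enriched sum differs little.

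The 4 named transcripts are the 2 largest increases and the 2 largest decreases among the DEGs whose groups did not overlap and whose log2 CPM averaged 3 or more, which 538 higher and 879 lower transcripts met.

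ENSRNOT00000013621, 10470 bases long, was the largest increase. Its level was 0, 0.919, 0.858, 1.32 and 2.01 CPM in the vehicle libraries MS-121 to MS-125 and 19.0, 16.7, 14.1, 15.98 and 13.9 CPM in the high-dose libraries MS-131 to MS-135. The groups were far apart, and the vehicle libraries varied more in proportion than the treated ones. The log2 fold change was 3.92 ± 0.37 (SE, adjusted p = 2.46e-06, Benjamini-Hochberg, from edgeR's quasi-likelihood test), a ratio of 15.2. Apart from the 0 in MS-121, its estimated counts were not whole numbers, so reads were divided between it and other transcripts. With limma on log2(TPM + 1), its log2 fold change was 1.44, below the 2.58 of the next transcript, so that it was the larger of these increases in CPM and not on that scale. At the low dose its log2 fold change was -0.22 ± 0.88 (adjusted p = 0.888), and high and low dose differed by 4.16 ± 0.47 (adjusted p = 2.72e-05). At 24 h the log2 fold change of the high dose was 3.14 ± 0.55 (adjusted p = 0.000638), and the difference between the times did not pass the test (-0.83 ± 0.72, adjusted p = 0.428). In cardiomyocytes at the same 0.5 mM its log2 fold change was 1.97 ± 0.61 (adjusted p = 0.102), and the difference between renal cells and cardiomyocytes at that dose did not pass the test (1.98 ± 0.87, adjusted p = 0.113). At other doses, it rose by 2.16 ± 0.50 in cardiomyocytes at 1.50 mM (adjusted p = 0.00422), and its log2 fold change was 0.48 ± 0.32 in hepatocytes at 0.125 mM (adjusted p = 0.242).

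ENSRNOT00000032016, of 2779 bases, was the second. Its level was 2.45, 1.84, 2.30, 1.59 and 2.01 CPM with vehicle and 20.3, 22.1, 22.5, 23.1 and 21.6 CPM at the high dose, with little spread in either group. The log2 fold change was 3.43 ± 0.09 (adjusted p = 6.03e-11, edgeR's quasi-likelihood test), a ratio of 10.8. It followed the dose, with 1.32 ± 0.14 at the low dose (adjusted p = 2.56e-05) and 2.10 ± 0.06 between high and low dose (adjusted p = 1.59e-09). It also went on rising with time. At 24 h the log2 fold change was 5.27 ± 0.15 (adjusted p = 1.17e-09), which was 1.83 ± 0.18 above that at 9 h (adjusted p = 1.72e-07). Scaled over all 30 renal libraries, its mean was 1.97 CPM with vehicle, 4.97 at the low and 21.2 at the high dose at 9 h, and 0.986, 2.65 and 40.0 CPM at 24 h. The vehicle level was thus the lower one at 24 h, and the high-dose level the higher one. In the low-dose group at 24 h, library MS-145 stood apart, its 100 most abundant transcripts taking 46.4% of the transcript counts. The other libraries of that group had 24.8 to 28.5%. In cardiomyocytes at their high dose of 1.50 mM the log2 fold change of ENSRNOT00000032016 was 3.76 ± 0.23 (adjusted p = 1.93e-07), from 0.0559 to 0.799 TPM. It passed the filter on low counts there only through the high-dose libraries and so had to differ. The size of that change depends on a vehicle level near the limit of detection. In hepatocytes at their high dose of 0.125 mM its log2 fold change was -0.16 ± 0.30 (adjusted p = 0.709). At 0.5 mM it was too low in cardiomyocytes to be tested there, and the difference between renal cells and cardiomyocytes did not pass the test (1.18 ± 0.55, adjusted p = 0.139).

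ENSRNOT00000003921, of 2069 bases, had the largest decrease. Its level was 35.3, 49.1, 20.4, 117.2 and 20.0 CPM in the vehicle libraries, and 0.389, 0.283, 0.186, 0.0410 and 0.0589 CPM at the high dose, which corresponds to 1 to 10 reads per library. The log2 fold change was -7.98 ± 0.83 (adjusted p = 5.30e-06, edgeR's quasi-likelihood test). The transcript passed the filter on low counts through the vehicle libraries and so had to differ, and that it is a DEG is no result. It is one of the 56 hepatocyte-only transcripts, and its vehicle level was highest in MS-124, as was their median. In hepatocytes with vehicle it stood at 18206 ± 654 TPM (SD, n = 5), and the hepatocyte share accounted for 73.8% of its renal vehicle level. Its mean was below 0.2 CPM in every other renal group, vehicle at 24 h included. The log2 fold change was -7.34 without library MS-124 and -6.00 with the hepatocyte signal subtracted.

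ENSRNOT00000054937, of 9192 bases, was the second largest decrease and was hardly touched by that signal (0.00295% of its vehicle level). Its level was 41.6, 48.4, 58.9, 73.2 and 65.4 CPM with vehicle and 8.98, 6.39, 12.7, 6.72 and 8.87 CPM at the high dose. The groups did not overlap, and the highest treated library was well under the lowest vehicle library. The log2 fold change was -2.73 ± 0.20 (adjusted p = 2.45e-07, edgeR's quasi-likelihood test), a ratio of 0.151. Its estimated counts were fractional in every library of the comparison, so here too reads were divided between it and other transcripts. The low dose gave -0.92 ± 0.26 (adjusted p = 0.0201), with libraries between 15.4 and 40.6 CPM, and high and low dose differed by -1.80 ± 0.29 (adjusted p = 0.000388). By 24 h the level at the high dose was 27.3 ± 6.59 CPM against 42.1 ± 4.98 CPM with vehicle (SD, n = 5, scaled over all 30 renal libraries). The log2 fold change was then -0.62 ± 0.16 (adjusted p = 0.00596), and the difference between the times passed the test (2.10 ± 0.27, adjusted p = 4.48e-06). The transcript was nearly absent from the other cell types, with means of 0.271 TPM in hepatocytes and 0.00225 TPM in cardiomyocytes with vehicle. In hepatocytes at 0.125 mM its log2 fold change was -1.97 ± 0.78 (adjusted p = 0.0546), and at 0.5 mM the change in renal cells minus that in cardiomyocytes was -2.04 ± 1.87 (adjusted p = 0.477). Cardiomyocytes held almost no counts of it, so the test between the cell types could not decide.

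**Figure D4:**
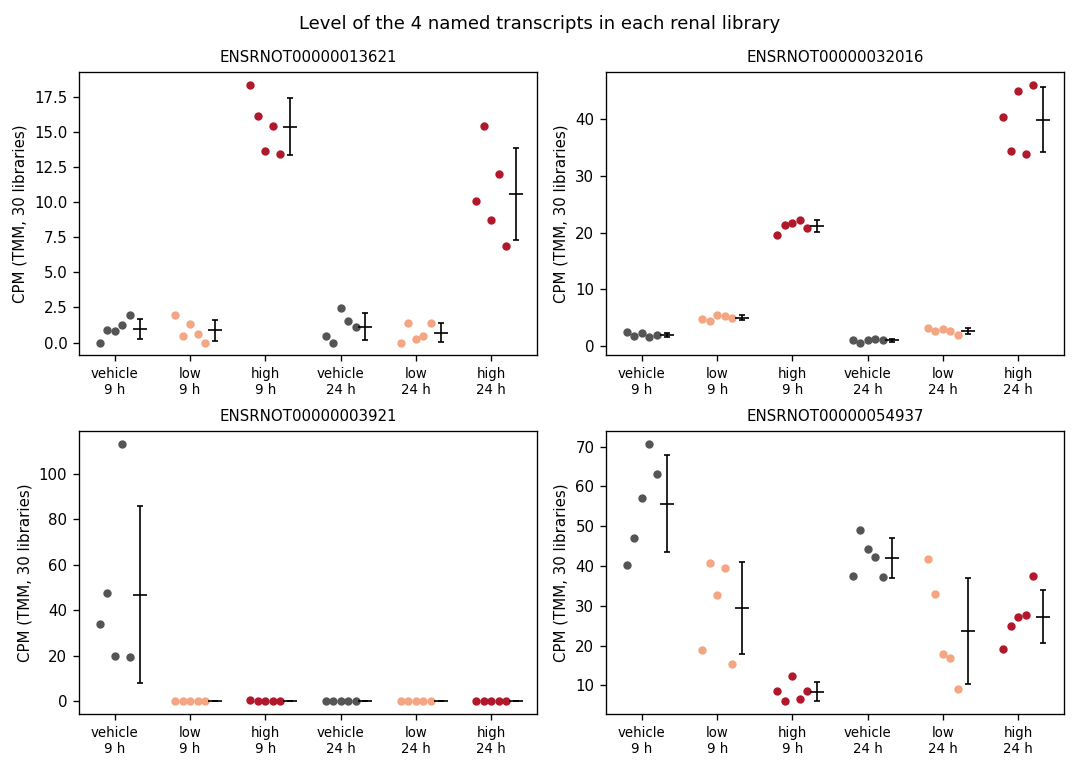
Level of the 4 named transcripts in each of the 30 renal libraries, in CPM scaled by TMM over these libraries. Points are libraries and bars are the mean and SD of 5 libraries. The first pair rises at the high dose only or mostly, ENSRNOT00000003921 is above 1 CPM only in the vehicle libraries of 9 h, and ENSRNOT00000054937 is lowest at the high dose at 9 h.

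The high dose at 24 h, in 10 libraries not used at 9 h, gave more DEGs: 4793 of 17798 transcripts tested (26.9%), 2143 higher (12%) and 2650 lower (14.9%). Of the 9 h DEGs, 1931 were also DEGs in the same direction at 24 h, which is 56.7% of the 9 h list and 40.3% of the 24 h list. The share was alike in both directions, 805 of the higher transcripts (55.4%) and 1126 of the lower ones (57.8%). A further 56 of the higher and 39 of the lower transcripts were DEGs in the opposite direction at 24 h. The median of these 56 was 0.96 at 9 h and -0.95 at 24 h on the log2 scale, and that of the 39 was -0.96 and 0.92.

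The change itself differed between 24 and 9 h, by an interaction term in edgeR with the same thresholds, for 2781 of 18752 transcripts (14.8%), with the later change above the earlier one in 6.53% and below it in 8.3%. Among the higher DEGs of 9 h, 303 had a smaller or opposite change at 24 h, with a median log2 fold change of 1.06 at 9 h and -0.14 at 24 h over the 295 tested at both times, and 9.08% had a larger one, with medians of 1.01 and 2.35. Among the lower ones, 367 had a smaller or opposite change, with medians of -1.08 and -0.0029 over the 339 tested at both times, and 278 a larger one, with medians of -0.90 and -1.98. For 1019 of the higher and 1304 of the lower DEGs the difference between the times did not pass the test, which does not show that it was absent. These counts describe transcripts chosen by their change at 9 h, which enters the interaction. All 56 and 39 transcripts that were opposite DEGs passed it. Of the 367, 21 had over 50% of their 9 h vehicle level accounted for by the hepatocyte signal.

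**Figure D5:**
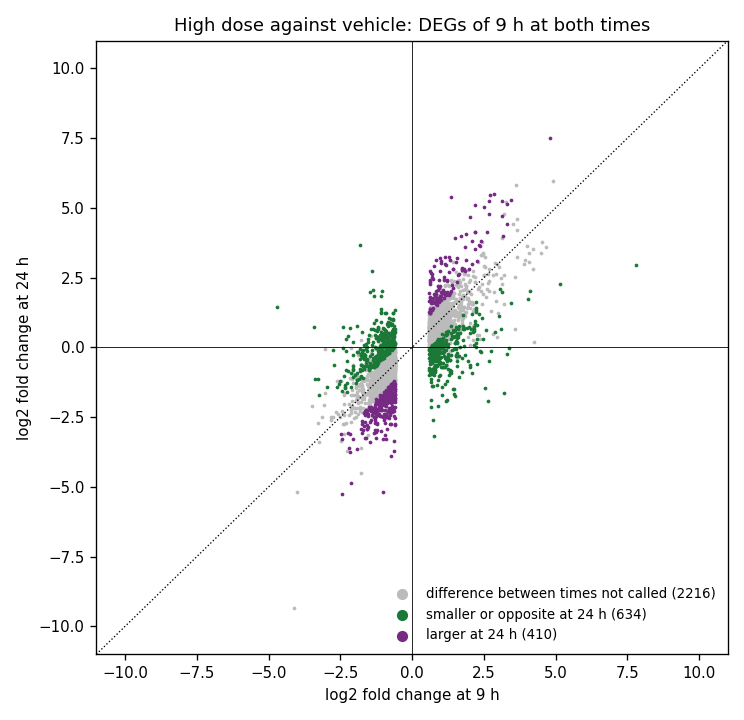
Log2 fold change of the high dose against vehicle at 24 h against that at 9 h, for the 3260 DEGs of 9 h that were also tested at 24 h. The dotted line marks equal change. Green points (634) had a change that passed the test as smaller or opposite at 24 h, violet points (410) as larger, and for the 2216 grey points the difference was not called.

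The low dose of 0.125 mM at 9 h gave 1173 DEGs against vehicle (6.69% of 17535 tested), 399 higher (2.28%) and 774 lower (4.41%). The comparison shares its 5 vehicle libraries with that of the high dose, so the values are only set side by side. The hepatocyte signal in these vehicle libraries was not subtracted here. Over the 1254 higher DEGs of the high dose that were tested at the low dose, the median log2 fold change was 0.27 there and 0.90 at the high dose. Over the 1942 lower ones it was -0.39 and -0.94. High and low dose differed directly in 2249 of 17641 transcripts (12.7%), of which 1099 were higher (6.23%) and 1150 lower (6.52%) at the high dose.

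The dose of 0.5 mM was also given to cardiomyocytes, as their low dose. One of their 5 treated libraries, MS-158, stood apart: its 100 most abundant transcripts took 46.0% of the transcript counts against 24.99 to 25.8% in the other 4, and it had 16973 transcripts with at least 5 scaled counts against 18383 to 18556. At 9 h it gave 414 DEGs in these cells (2.41% of 17162 tested), 219 higher (1.28%) and 195 lower (1.14%), and without MS-158 it gave 775, 421 higher (2.39%) and 354 lower (2.01%). Of the renal DEGs, 54 of the renal higher transcripts were also higher, which is 3.71% of the renal list and 24.7% of the cardiomyocyte list, and 57 of the lower ones were also lower, 2.92% and 29.2%. Without MS-158 the shares were 7.22% of the renal and 24.9% of the cardiomyocyte list for the higher, and 4.93% and 27.1% for the lower. A further 21 of the renal higher and 18 of the lower transcripts were DEGs in the opposite direction. The change at 0.5 mM differed between the cell types, by an interaction term, for 2733 of 19227 transcripts (14.2%), with the renal change above that of cardiomyocytes in 5.04% and below it in 9.17%. By this test 563 of the renal higher and 1063 of the renal lower DEGs had the larger change in their direction in renal cells, while 5 and 2 had it in cardiomyocytes. Without MS-158 the interaction was passed by 3301 transcripts (16.9%), and these numbers were 723, 1292, 3 and 2. The members were chosen by their renal change, which favours the renal side in this count.

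Hepatocytes had no dose of 0.5 mM, and their high dose was 0.125 mM. At 9 h it gave 3062 DEGs (18.4% of 16607 tested), 8.48% being higher and 9.95% lower. Of the renal higher DEGs, 13.1% were also DEGs higher in hepatocytes and 8.87% were lower. Of the renal lower DEGs, 14.1% were also lower and 7.95% higher. The doses differ, so no comparison was made.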

How the data were processed

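The authors pseudo-aligned paired reads of poly-A-enriched, stranded libraries with Kallisto (0.42.4 in the submitters' processing notes, which name the build Rnor_6.0), and deposited per library the estimated counts and the TPM of 65166 targets. Of these, 25095 are genomic intervals, which were left out of the tests. An estimated count need not be whole, because reads that several transcripts share are divided among them. The deposited estimated counts were rounded, filtered (filterByExpr), scaled by TMM and tested with edgeR 4.0.16 in R 4.3.3 (glmQLFit, glmQLFTest, Benjamini-Hochberg adjustment), with the groups of each comparison alone, where the authors had used Sleuth. Standard errors were derived as the absolute log2 fold change over the root of the F value that edgeR gives.

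Alternatives were DESeq2 1.42.0, upper-quartile scaling, other filters, limma 3.58.1 on log2(CPM + 0.5) and log2(TPM + 1), transcripts with intervals, whole counts only, other fold thresholds, all renal groups in one fit and each library left out. Subtraction of the hepatocyte signal (each library's median share times the hepatocyte profile, floored at 0), and leaving out MS-130, MS-137 and the cardiomyocyte library MS-158, which stands apart, and for the classes the hepatocyte library MS-183, were added after the data were seen. The transcripts, classes and lists were chosen with earlier results of these data known. Named transcripts are the 2 largest increases and decreases among DEGs without overlap between groups and averaging 3 or more in log2 CPM.

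In simulated data for this comparison, with 17243 transcripts tested, the fit recovered 168 of 188 changed transcripts, 137 of the 147 changed by at least 2-fold, with 0 in the wrong direction, and called 2 unchanged ones. At 23108516 to 37837044 counts per library, counting error still weighs on low transcripts: the median standard error of the log2 fold change was 0.26 in the lowest of 4 bins of level and 0.03 in the highest.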

Additional observations from a re-analysis of the deposited data

Results flagged for a closer look

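In the 9 h renal groups, 24 sets of 5 values (a measure in a group) were examined for a value far from the others, and 1 was found, where chance gives about 1 in 20. Libraries of other groups were not examined in this way. In the vehicle group at 9 h, the summed TPM of the hepatocyte-enriched class was 0.259% in MS-124, and the other 4 libraries lay between 0.208 and 0.222%. MS-124 also held the highest share of the hepatocyte-only transcripts, 0.332%, and the part of that signal in the sum was not tested.

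The response to the high dose differed between 24 and 9 h for 2781 transcripts, and at 0.5 mM between renal cells and cardiomyocytes for 2733, or 3301 without the cardiomyocyte library MS-158 (interaction terms in edgeR with Benjamini-Hochberg adjustment). Among the named transcripts, the log2 change of ENSRNOT00000032016 was 1.83 ± 0.18 higher at 24 h than at 9 h (adjusted p = 1.72e-07), and that of ENSRNOT00000054937 was 2.10 ± 0.27 higher, its fall having been smaller at 24 h (adjusted p = 4.48e-06). For ENSRNOT00000003921 the fitted differences were 11.21 ± 2.13 between the times (adjusted p = 0.00036) and -12.90 ± 2.96 between renal cells and cardiomyocytes (adjusted p = 0.00522). The groups at 24 h and the cardiomyocytes were at or near 0, so the sizes of these differences depend on the prior count and are no bounds. Both fits rest on its level in the 9 h vehicle libraries, of which the hepatocyte share accounted for 73.8%. A response that differs cannot be told apart from that signal here.

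The genomic intervals, left out of the comparison, also changed. In a fit of their own, 1528 of 7178 were higher (21.3%) and 535 lower (7.45%) at the high dose, with a median log2 fold change of 0.14. Their summed share of the estimated counts nevertheless went from 7.67 ± 0.317% to 6.56 ± 0.692% (SD, n = 5 each). The 10 intervals whose share fell most changed by -1.16 percentage points together, and all others by 0.0507.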

How the results depend on the processing

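The counts of DEGs at 9 h stayed within 1.5 times under DESeq2, upper-quartile scaling, both other filters, limma on log2(CPM + 0.5), the joint fits and the subtraction, and without each library in turn they ran from 3336 to 3448. The median log2 fold change of all transcripts moved by less than 0.1 under each scaling. The counts recomputed here (DEGs, shared DEGs, differences between times, doses and cell types) and the mean absolute fold change have no sign, so only their size was compared. The named transcripts kept their direction and significance under each alternative that tested them, which for ENSRNOT00000013621 and ENSRNOT00000054937 leaves out whole counts only. For ENSRNOT00000003921 this is no result, since it passed the filter on low counts through the vehicle libraries and had to differ. The size of the named changes did change on log2(TPM + 1), to 1.44 for ENSRNOT00000013621, 2.58 for ENSRNOT00000032016, -4.63 for ENSRNOT00000003921 and -2.05 for ENSRNOT00000054937. With limma on log2(CPM + 0.5) they were 3.60, 3.15, -5.84 and -2.66 in the same order. Without each library, ENSRNOT00000003921 ran from -8.31 to -7.34. Leaving out MS-137 gave 4899 DEGs at 24 h, MS-130 gave 2371 transcripts between the doses, and the cardiomyocyte library MS-158 gave 3301 between the cell types and 775 DEGs in cardiomyocytes at 0.5 mM, against 414 with it. The classes of level and length, the sums of TPM and the comparison of the low dose with vehicle were not recomputed. No paired analysis was possible because no replicate number occurs in more than 1 group.

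Counts changed most with the fold threshold and with fewer transcripts tested. With no threshold, a 2-fold threshold and whole counts only, in this order, the DEGs at 9 h were 10564, 1539 and 1567, those higher 5273, 687 and 677, those lower 5291, 852 and 890, the DEGs at 24 h 9477, 2358 and 2238, and those shared in one direction by both times 6157, 780 and 925. The change differed between the times for 6305, 1314 and 1350 transcripts, between high and low dose for 8011, 809 and 1087, and between renal cells and cardiomyocytes for 4491, 1443 and 1466. On log2(TPM + 1), where the pseudocount shrinks changes of low transcripts, limma called 2203 DEGs at 9 h, 885 higher, 1201 shared with 24 h, and 1369 between the doses. The mean absolute log2 fold change was 0.81 with no filter beyond 1 count, 0.36 on log2(CPM + 0.5), 0.30 on log2(TPM + 1) and 0.50 in the fit of all 6 renal groups, against 0.43. The fit of all 6 renal groups includes MS-145, which stood apart and was not left out. Depth limits the low transcripts, and near 3 counts per library a fold change depends on the prior count.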
